A study of Pistacia vera with 20 samples.

Results

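The genes described here are those of sucrose cleavage and synthesis, starch synthesis and breakdown, and sugar transport in the hull of pistachio, Pistacia vera. They were chosen by words in the deposited gene descriptions: sucrose synthase, sucrose-phosphate synthase and phosphatase, invertase or beta-fructofuranosidase, starch synthase, starch-branching enzyme, glucose-1-phosphate adenylyltransferase, alpha-amylase, beta-amylase, SWEET, sucrose transport, hexose carrier and sugar transport protein. The rule found 125 of 39783 genes. Of these, 71 passed the expression filter (at least 1 FPKM in at least 3 libraries) and were tested. The other 54 averaged at most 0.483 FPKM over the 20 libraries, and 23 of them had no read in any library. FPKM scales fragments to gene length and library size, so that levels of genes of different length can be compared. The library size behind the deposited FPKM was not the number of reads counted. It was an effective size that lay above that number in some libraries and below it in others.

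Sucrose is the main form in which plants move carbon from leaves to fruits. It enters metabolism through sucrose synthase or through invertases of the cell wall, the vacuole and the cytosol or organelles, and it is made again by sucrose-phosphate synthase and sucrose-phosphatase. Plastids store carbon as starch, which glucose-1-phosphate adenylyltransferase and the starch synthases build and the amylases break down. SUC carriers move sucrose with protons, SWEET proteins let sugars pass membranes in either direction, and sugar transport proteins (STP) and hexose carriers bring hexoses into cells, often after a cell wall invertase has split sucrose outside the cell.

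The hull (the exocarp and mesocarp around the shell) was sampled from 2 cultivars, Golden Hills and Lost Hills, both grown commercially in an orchard. The groups were tattered hulls of Golden Hills at 133 days post anthesis (n = 3), intact hulls of Golden Hills at 133 d (n = 3) and at 91 d (n = 4), cracked hulls of Lost Hills at 133 d (n = 3), and intact hulls of Lost Hills at 133 d (n = 3) and at 91 d (n = 4). The title of the series concerns modification of cell walls and the splitting of the hull. Tattered hulls came from Golden Hills and cracked hulls from Lost Hills, so the kind of split and the cultivar cannot be told apart. The labels name biological replicates without saying whether these came from separate trees, so p-values measure the spread between these samples only. In whole tissue, fewer cells of a type and less RNA per cell cannot be told apart.

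Reads counted on genes ranged between 16116971 and 18609861 per library, with 22377 to 23344 genes detected. For a gene of median length (1017 bases) 18.1 reads make 1 FPKM, so values below about 1 FPKM rest on few reads. Marker lists were set against the hull label. Genes of epidermis and cuticle (11 genes, 2 without a read) summed to between 21.9 and 60.4 FPKM in every library. Genes of the kernel (25 storage protein and oleosin genes, 1 without a read) summed to at most 116 FPKM. Secondary wall cellulose synthases, taken as the shell list (6 genes, 1 without a read), summed to at most 11 FPKM. That list held only subunits 4, 7 and 8, so a difference in its sum is not shown to come from shell. Some libraries of 91 d held transcripts of genes that at 133 d belonged to the other cultivar. Replicate 2 of Lost Hills had more than 3 reads for all 14 such Golden Hills genes, with a median level 36.9% of that in Golden Hills. Replicate 2 of Golden Hills had more than 3 reads for all 12 such Lost Hills genes (median 27.1%), and replicate 3 of Golden Hills for 11 of them (median 9.15%). These 3 are called mixed libraries here. Fewer such genes passed 3 reads in replicate 1 of Lost Hills (4 of 14, median 1.18%) and in replicates 1 and 4 of Golden Hills (1 of 12 each). Results that use the 91 d libraries are therefore given also without both libraries numbered 2, and without those and replicate 3 of Golden Hills. This was done only for the genes chosen by the rule.

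The members held 5 sucrose synthases, all tested, and 29 sucrose-phosphate enzymes, of which 8 were tested. They held 21 invertases (13 tested), 10 starch synthases (8 tested) and 5 subunits of glucose-1-phosphate adenylyltransferase (3 tested). The 3 alpha-amylases and 8 beta-amylases were all tested. Transporters were 19 SWEET genes (7 tested), 3 sucrose transport proteins and 3 hexose carriers, all tested, and 14 sugar transport proteins (6 tested). The words starch-branching matched no gene. Another 5 genes (4 tested) carry the words in their domain descriptions or in another name, such as Protein SWEETIE, and are counted only in the totals. Of the 29 sucrose-phosphate genes, 17 had no read in any library. Many of those stood near each other as copies of a sucrose-phosphate synthase 4, with 9 genes on contig ptg000004l between 6337402 and 6921620 of which 1 was tested. Other close groups were 8 invertases on contig ptg000021l between 3073837 and 3195285, 5 SWEET genes on contig ptg000007l between 958283 and 1127518, and 4 sugar transport proteins on contig ptg000022l between 25255097 and 25285087. How the counting treated reads shared by such copies is not given in the sources used here, so the values of close copies are uncertain.

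Levels differed widely between classes, and in 7 of the 11 classes 1 gene held most of the summed FPKM. SWEET7 (evm_TU_ptg000010l_156), the highest of all members, averaged 423.7 FPKM over the 20 libraries and made up 78.3% of the SWEET sum. The sucrose transporter SUC2 (evm_TU_ptg000001l_3731), which in Arabidopsis loads sucrose into the phloem, averaged 219.4 FPKM and made up 77.4% of its class. Inactive beta-amylase 9 (evm_TU_ptg000022l_1796), a protein without the activity of its family, averaged 244.7 FPKM and made up 63.7% of the beta-amylase sum. A sucrose synthase (evm_TU_ptg000001l_996) averaged 181.4 FPKM and an alpha-amylase (evm_TU_ptg000001l_2703) 152.5 FPKM. Lower leaders were sucrose-phosphatase 2 (evm_TU_ptg000011l_436) with 75.6 FPKM, alkaline/neutral invertase C (evm_TU_ptg000022l_2503) with 71.2 FPKM, starch synthase 1 (evm_TU_ptg000009l_1684) with 69.2 FPKM and sugar transport protein 5 (evm_TU_ptg000001l_3122) with 52.7 FPKM. The small subunit of glucose-1-phosphate adenylyltransferase (evm_TU_ptg000019l_1666) averaged 30.9 FPKM and the hexose carrier HEX6 (evm_TU_ptg000004l_944) 6.48 FPKM. Summed levels by class are descriptions without a test, since a few genes set them.

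**Figure D1:**
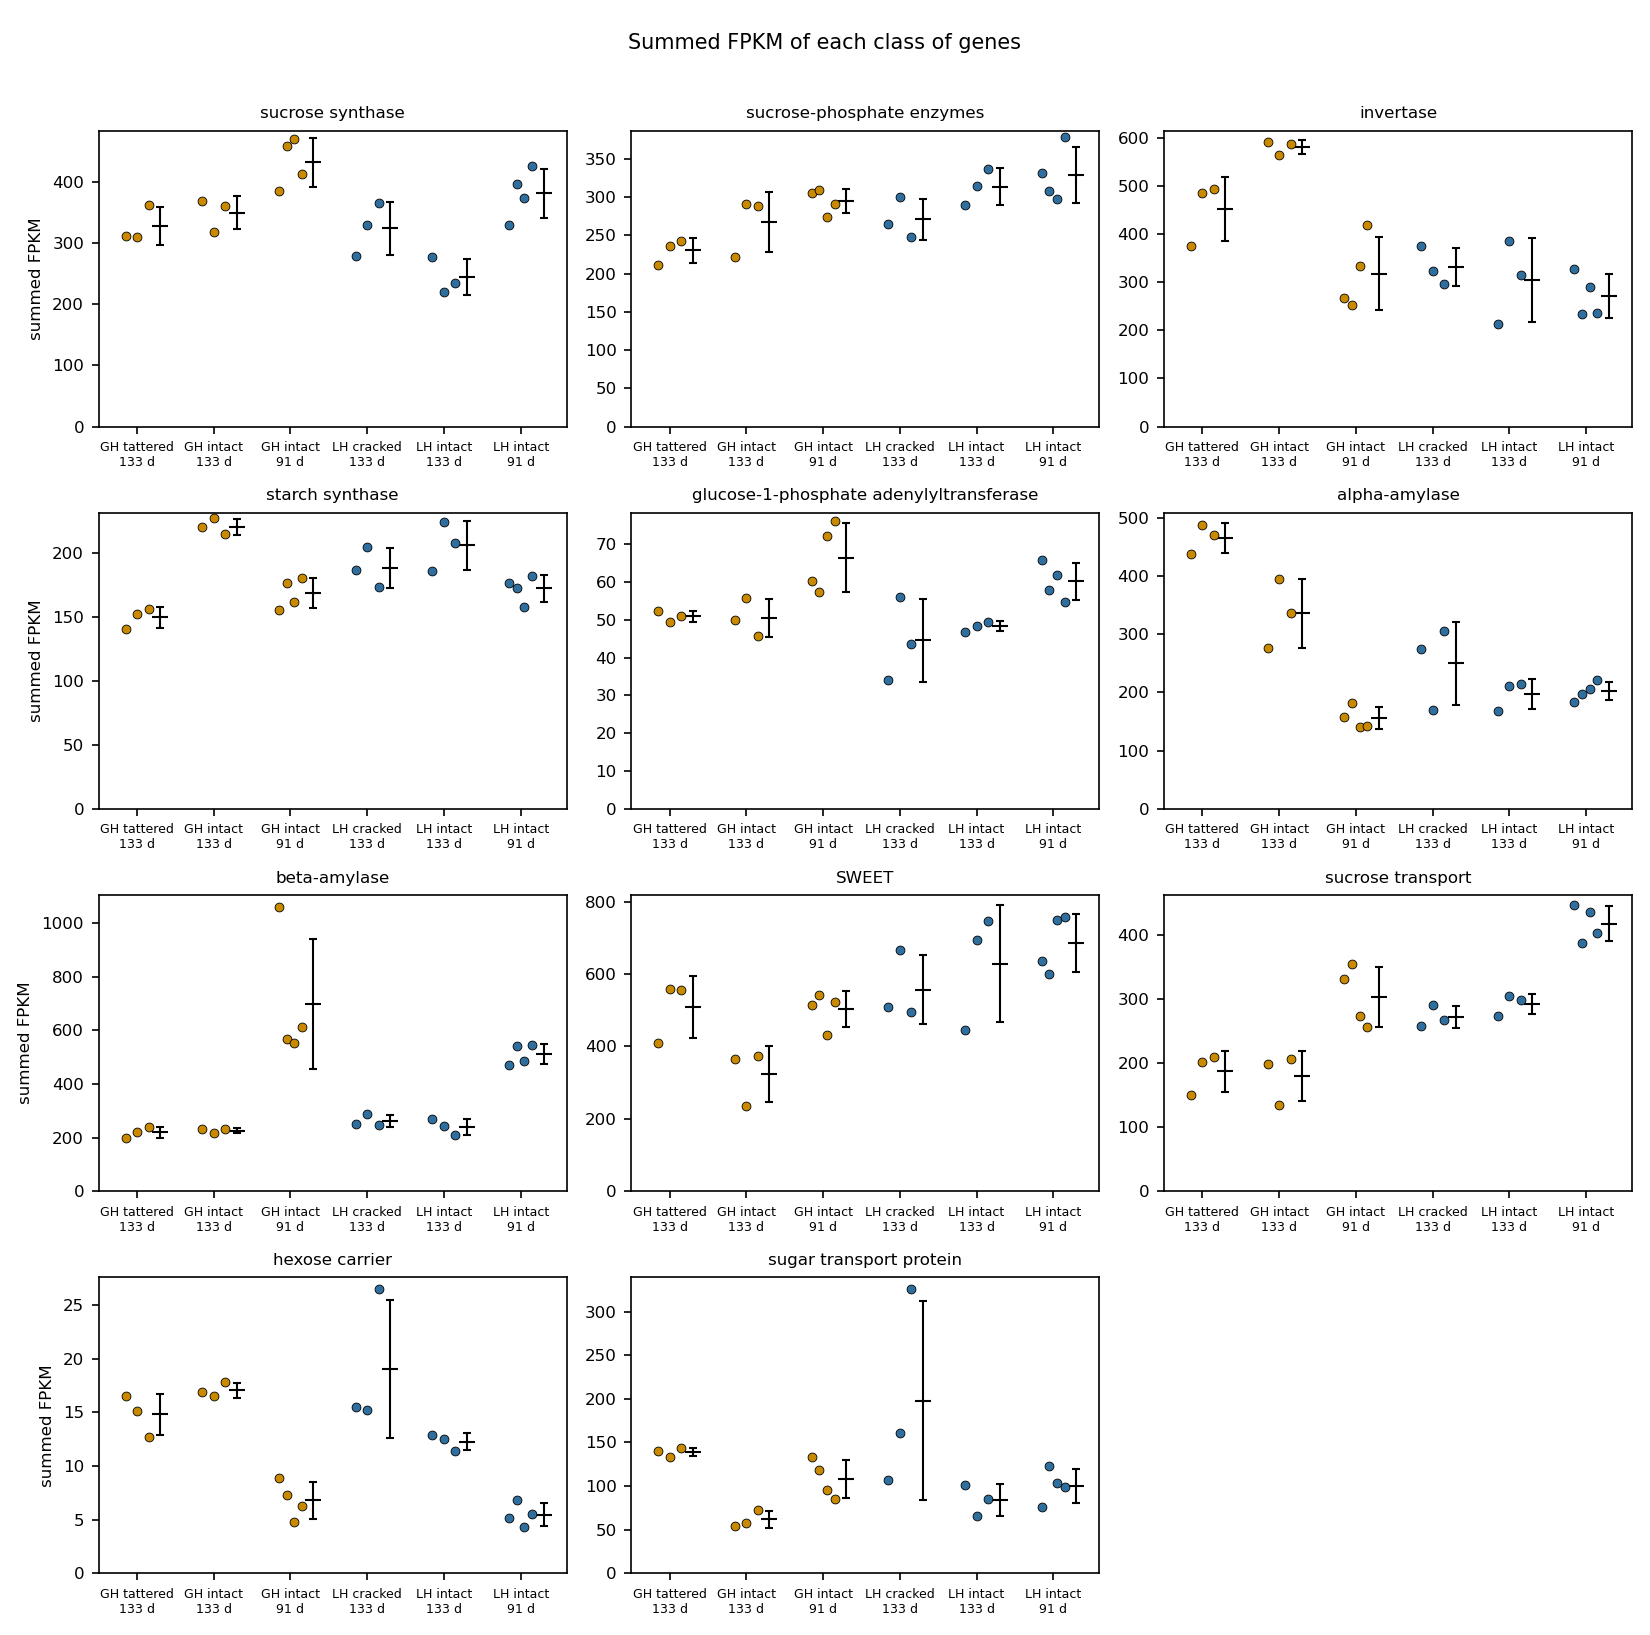
Summed FPKM (y axis) of 11 classes of genes, 1 panel each, in 6 groups (x axis; GH, Golden Hills; LH, Lost Hills). Points are libraries, and the black mark with its bar is the mean and SD. Beta-amylases summed to 226 ± 9.40 FPKM in intact Golden Hills hulls at 133 d and 699 ± 244 FPKM at 91 d, and sugar transport proteins to 139 ± 4.72 FPKM in tattered and 61.9 ± 9.65 FPKM in intact Golden Hills hulls.

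Of the 71 tested genes, 18 were called in none of the 6 comparisons between pairs of groups, at an adjusted p under 0.05 in limma over all 19716 tested genes. The share of all tested genes called in none was not counted, so this number is not shown to be particular to the members. Calls are described here as higher or lower, with log2 fold changes of FPKM + 1 and their standard errors. Neither interaction called a member. For the difference between the splits of the cultivars 0 members were called and 12 had an unadjusted p under 0.05, against 0.994% of all tested genes called (0.771% higher and 0.223% lower) and 14.2% under the unadjusted threshold. For the difference between the age changes of the cultivars 0 were called and 15 had an unadjusted p under 0.05, against 3.29% of all tested genes called (2.05% higher and 1.24% lower) and 18.4%. No member is therefore shown to differ between the cultivars in how it went with splitting or with age.

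**Figure D2:**
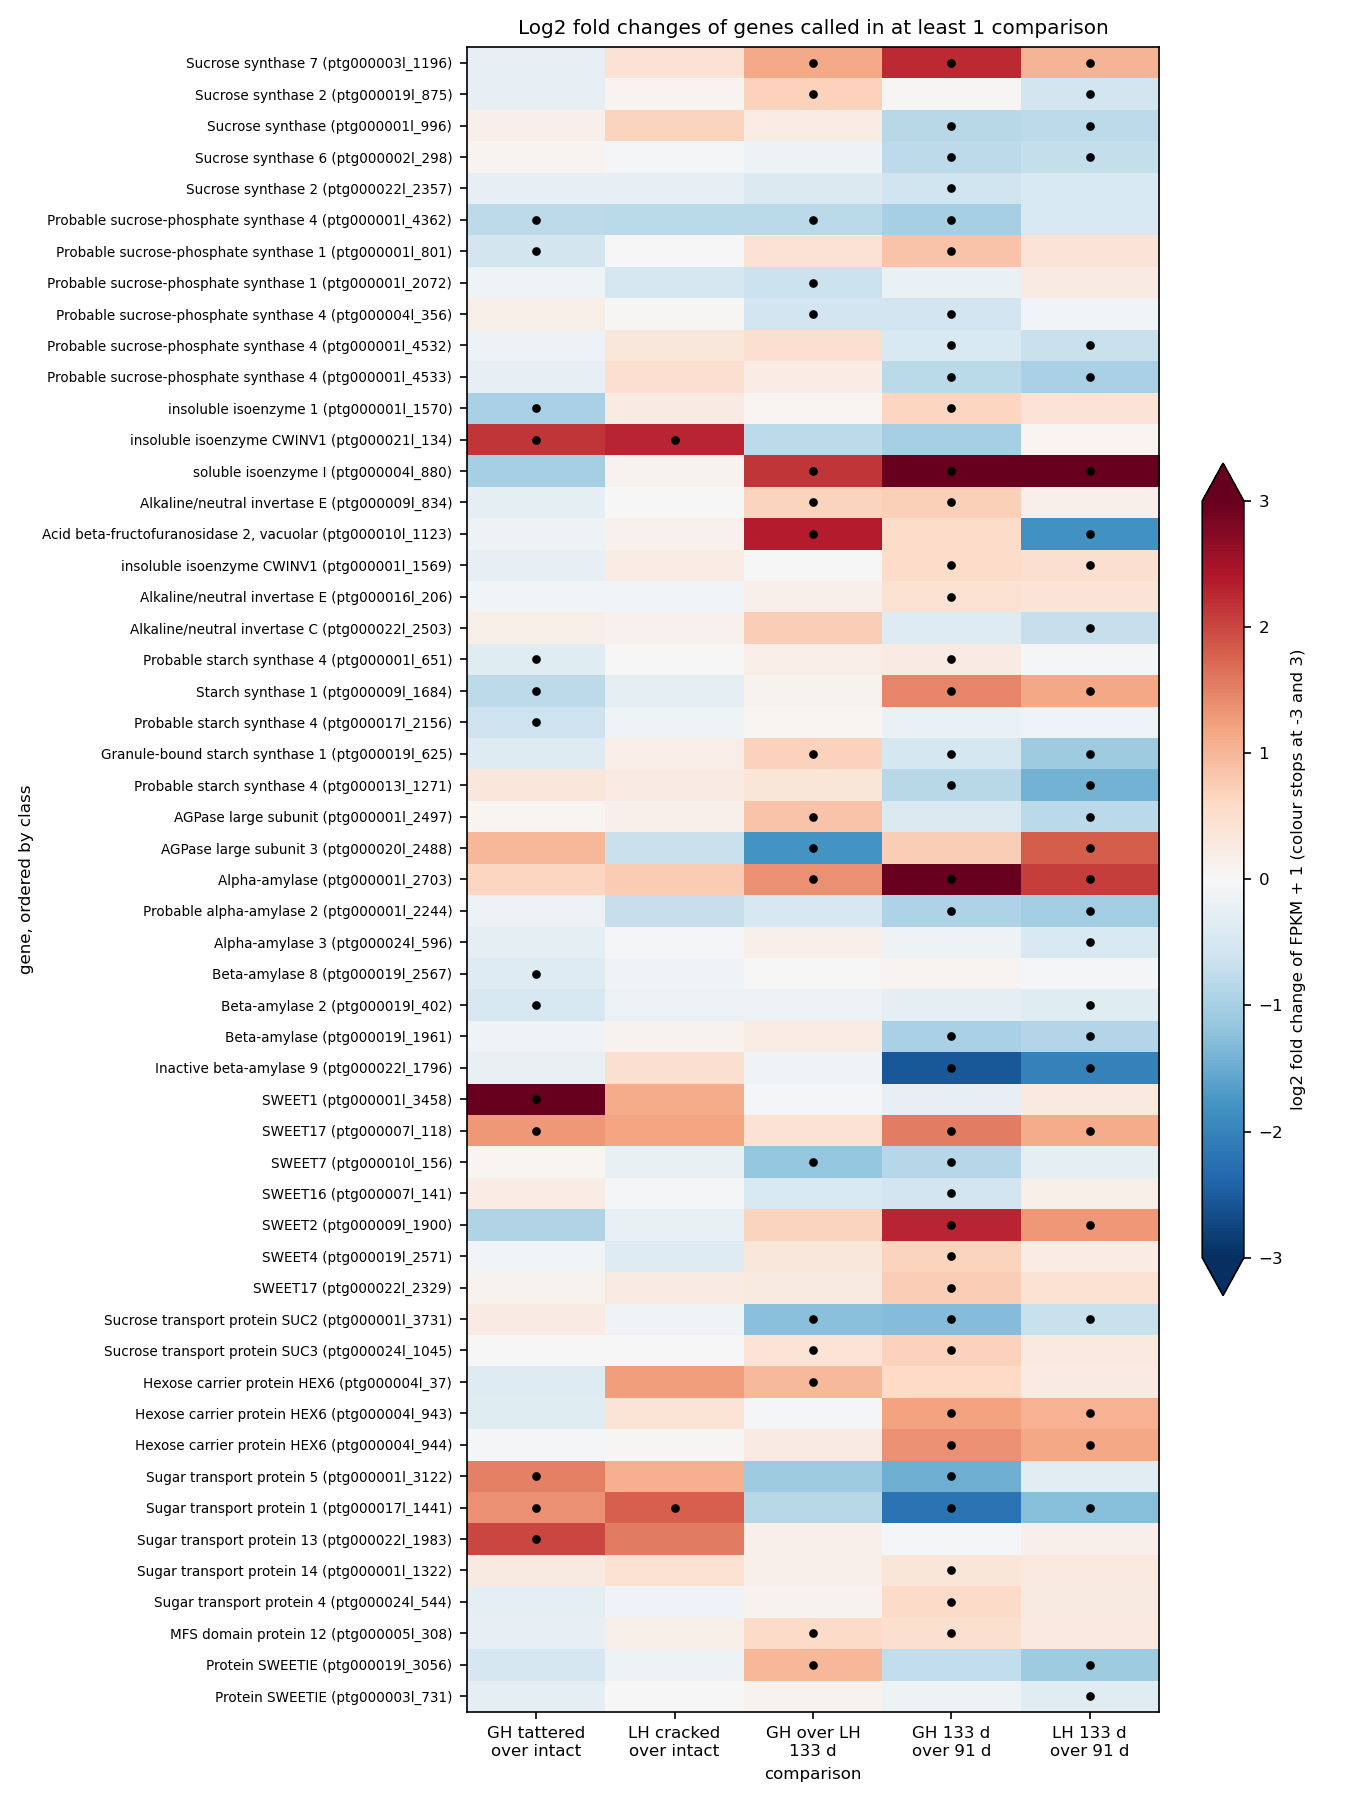
Log2 fold change of FPKM + 1 (colour, stopping at -3 and 3) of the 53 genes called in at least 1 comparison (rows, ordered by class) in 5 comparisons (columns; GH, Golden Hills; LH, Lost Hills), with a dot where the gene was called. Most dots stand in both columns of age (37 for Golden Hills and 29 for Lost Hills), with 14 for tattered hulls and 2 for cracked hulls. The comparison of the cultivars at 91 d is not drawn, since it called 0 members.

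In tattered hulls of Golden Hills, 5 of 19 tested transporter genes were called higher and 3 of 8 starch synthase genes lower than in intact hulls of the same age, and the others in both groups were not called. Of 71 tested members 14 were called, 6 higher and 8 lower. That is 19.7%, against 16.6% of all tested genes (9.29% higher and 7.35% lower), and the median log2 fold change was -0.13 over the members and 0.01 over all genes. An unadjusted p under 0.05 was found for 25 members, against 31.1% of all tested genes. No transporter and no starch synthase was called the other way, and the median log2 fold change was 0.09 over the 19 transporters and -0.29 over the 8 starch synthases. Both called beta-amylases (of 8 tested) and both called sucrose-phosphate synthases were lower. On TPM scaling 19 members were called, 6 higher and 13 lower, with the median of all genes shifted to -0.12. With each of the 6 libraries left out in turn, 5 of the 14 kept their call each time: SWEET1, the cell wall invertase CWINV1, sugar transport protein 13, starch synthase 1 and 1 starch synthase 4. The count fell to 9 without replicate 2 of the tattered hulls and to 9 without replicate 3 of the intact hulls.

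SWEET1 (evm_TU_ptg000001l_3458, contig ptg000001l, 42710783 to 42712743, minus strand), a transporter that in Arabidopsis carries glucose, showed the largest rise in tattered hulls on the log2(FPKM + 1) scale among the members. It had 158, 218 and 198 FPKM in tattered hulls, against 11.7, 15.7 and 17.3 FPKM in intact hulls of Golden Hills. The groups lay far apart, and the mean was 12.8-fold higher in tattered hulls (log2 fold change 3.60 ± 0.49, adjusted p = 0.00010). In Lost Hills the same gene had 23.5, 44.9 and 36.4 FPKM in cracked hulls, against 42.5, 5.38 and 14.0 FPKM in intact hulls. There the groups overlapped and the gene was not called.

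Of 6 tested sugar transport proteins, which bring in hexoses, 3 were called higher in tattered hulls and 3 were not called. That is 50%, against 16.6% of all tested genes (9.29% higher and 7.35% lower). Sugar transport protein 13 (evm_TU_ptg000022l_1983, contig ptg000022l, 25280053 to 25285087, minus strand) had 42.2, 37.1 and 35.5 FPKM in tattered hulls, against 8.22, 6.83 and 12 FPKM in intact hulls, with no overlap (4.26-fold, log2 fold change 2.00 ± 0.43, adjusted p = 0.00454). Sugar transport protein 5 had 54.5, 48.5 and 57.7 FPKM in tattered hulls, against 13.4, 17.7 and 25.3 FPKM in intact hulls (2.85-fold, log2 fold change 1.5 ± 0.41, adjusted p = 0.0188). Its groups did not overlap, but the call was lost without replicate 1 of the intact hulls (1.29, adjusted p = 0.0798) or replicate 3 of the tattered hulls (1.45, adjusted p = 0.0553). Sugar transport protein 1 (evm_TU_ptg000017l_1441, contig ptg000017l, 27067025 to 27070296, minus strand) had 13.0, 11.5 and 13.0 FPKM in tattered hulls, against 6.76, 3.13 and 3.45 FPKM in intact hulls. All tattered libraries stood above all intact ones (2.81-fold, log2 fold change 1.37 ± 0.36, adjusted p = 0.0157), and the call was lost without replicate 2 or replicate 3 of the intact hulls (1.20 and 1.25, adjusted p = 0.0564 and 0.0524). A SWEET17 gene (evm_TU_ptg000007l_118), chosen after its values were seen, had 5.66, 4.95 and 8.06 FPKM in tattered hulls, against 1.31, 2.70 and 1.86 FPKM in intact hulls. SWEET17 of Arabidopsis is a fructose transporter of the vacuole membrane. The pistachio gene was called higher (log2 fold change 1.29 ± 0.38, adjusted p = 0.0269), a call lost without replicate 1 or 3 of the intact hulls or any tattered library (log2 fold changes 1.13, 1.28, 1.34, 1.42 and 1.12).

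Invertase genes with protein matches to cell wall enzymes went in opposite directions in tattered hulls. CWINV1 (evm_TU_ptg000021l_134, contig ptg000021l, 3192251 to 3195285, minus strand) had 4.44, 3.96 and 4.03 FPKM in tattered hulls, against 0.166, 0.187 and 0.129 FPKM in intact hulls. It was low in absolute terms and 25.8-fold higher in tattered hulls (log2 fold change 2.15 ± 0.44, adjusted p = 0.00316). It stands in the group of 8 invertase genes on its contig, so reads of close copies may be mixed. The short model named insoluble isoenzyme 1 (evm_TU_ptg000001l_1570, 216 bases) had 12.2, 11.5 and 20.5 FPKM in tattered hulls, against 38.5, 24.4 and 25.4 FPKM in intact hulls. It was called lower without overlap (2.00-fold, log2 fold change -0.97 ± 0.25, adjusted p = 0.0149). That call was lost without replicate 1 of the intact hulls (-0.76, adjusted p = 0.0758) and without replicate 1 or replicate 2 of the tattered hulls (-0.86 and -0.82, adjusted p = 0.0535 and 0.0780). With only the groups compared in the fit the gene was not called either (adjusted p = 0.0704). Next to it lies another CWINV1 gene (evm_TU_ptg000001l_1569, 20304167 to 20306052), which had 23.5, 18.6 and 16.0 FPKM in tattered hulls, against 26.4, 21.1 and 21.5 FPKM in intact hulls, and was not called.

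Starch synthase 1, which lengthens glucose chains in the plastid, had 50.2, 65.8 and 69.8 FPKM in tattered hulls, against 103, 116 and 103 FPKM in intact hulls of Golden Hills. It was 1.73-fold lower in tattered hulls without overlap (log2 fold change -0.79 ± 0.16, adjusted p = 0.00300). A starch synthase 4 (evm_TU_ptg000017l_2156), of the type that in Arabidopsis starts granules, had 26.7, 26.2 and 26.1 FPKM in tattered hulls, against 49.4, 35.9 and 38.7 FPKM in intact hulls (1.57-fold lower, log2 fold change -0.62 ± 0.13, adjusted p = 0.00504). The 3 tattered libraries were close to each other and all below the intact ones. A sucrose-phosphate synthase 4 (evm_TU_ptg000001l_4362) had 16.0, 23.5 and 27.1 FPKM in tattered hulls, against 28.3, 40.6 and 48.4 FPKM in intact hulls (1.76-fold lower, log2 fold change -0.79 ± 0.22, adjusted p = 0.0217). The groups lay side by side without overlap, and the call was lost without replicate 2 or replicate 3 of the intact hulls (-0.74 and -0.62, adjusted p = 0.0593 and 0.0927) or replicate 1 of the tattered hulls (-0.58, adjusted p = 0.0975). With only the groups compared in the fit it was lost too (adjusted p = 0.102). Among genes that were not called, the 5 sucrose synthases included the most abundant one with 167, 132 and 161 FPKM in tattered hulls, against 187, 101 and 138 FPKM in intact hulls. Alpha-amylase had 386, 417 and 399.7 FPKM in tattered hulls, against 231, 292 and 247 FPKM in intact hulls, and was not called although the groups did not overlap.

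Genes of the phloem list, called phloem genes here (58 genes, 32 tested and 10 without a read), summed to 979 to 1124 FPKM in tattered hulls. Intact Golden Hills hulls had 616 to 846 FPKM, so the sums did not overlap. The words of the list took in F-box proteins, phospholipases and a pectate lyase beside phloem protein 2 and sieve element occlusion genes. Its most abundant genes were phloem protein 2-like and F-box genes, so the sum need not follow the amount of phloem. Kernel genes summed to 27.0 to 48.5 FPKM in tattered hulls and 23.6 to 29.0 FPKM in intact hulls. Genes of green tissue summed to 431 to 673 FPKM in tattered hulls and 498 to 596 FPKM in intact hulls. The part of other cell types in the changes of sugar and starch genes was not tested.

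In cracked hulls of Lost Hills 2 of the 71 members were called, both higher. That is 2.82%, against 1.56% of all tested genes (1.48% higher and 0.0812% lower). The median log2 fold change was 0.03 over the members and -0.01 over all genes, and 15 members had an unadjusted p under 0.05, against 8.77% of all tested genes. Sugar transport protein 1 had 17.9, 27.0 and 62.5 FPKM in cracked hulls, against 9.57, 9.66 and 5.98 FPKM in intact hulls of Lost Hills. The groups did not overlap, and the mean was 4.26-fold higher in cracked hulls (log2 fold change 1.80 ± 0.36, adjusted p = 0.0102), with replicate 3 far above the other cracked libraries. CWINV1 (evm_TU_ptg000021l_134) had 2.83, 12.7 and 16.9 FPKM in cracked hulls, against 2.77, 0.683 and 0.287 FPKM in intact hulls. Its lowest cracked library lay just above its highest intact one, and the mean was 8.67-fold higher in cracked hulls (log2 fold change 2.28 ± 0.44, adjusted p = 0.00729).

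Neither call for cracked hulls held throughout. Without replicate 3 of the cracked hulls both calls were lost, with log2 fold changes of 1.32 for sugar transport protein 1 and 1.85 for CWINV1 (adjusted p = 0.0630 for each), and the ratio of means of sugar transport protein 1 was 2.67. The ratio of means of CWINV1 was 22.3 without replicate 1 of the intact hulls, its highest intact library. Both were also lost without replicate 3 of the intact hulls (1.60 and 1.96, adjusted p = 0.0700 and 0.0570), and that of CWINV1 without replicate 2 of the intact hulls (2.15, adjusted p = 0.0503). Fitting only the groups compared called 0 members (adjusted p = 0.423 and 0.558). By voom on the recovered reads the call of CWINV1 was lost (adjusted p = 0.0540). Leaving out replicate 2 of the cracked hulls raised the count of called members to 10, and leaving out replicate 1 raised it to 5. The share of all tested genes called in those fits was not counted, so these counts are not shown to be particular to the members. Both genes were called higher in tattered hulls too, in other libraries but in the same fit, which shares its estimate of the spread. There the call of sugar transport protein 1 was also lost with some libraries left out. The share of all tested genes called in both splits was not counted. Other sugar transport proteins called in tattered hulls had high levels in some cracked libraries. Sugar transport protein 13 had 12, 28.0 and 46.1 FPKM in cracked hulls, against 12.2, 5.83 and 6.71 FPKM in intact hulls of Lost Hills. Sugar transport protein 5 had 45.5, 77.3 and 170.3 FPKM in cracked hulls, against 54.4, 23.7 and 47.5 FPKM in intact hulls. In each of these the groups overlapped through cracked replicate 1, which lay nearest to the intact hulls. Phloem genes summed to 839 to 963 FPKM in cracked hulls and 934 to 1045 FPKM in intact Lost Hills hulls, and kernel genes to 31.8 to 107 FPKM in cracked and 33.1 to 51.2 FPKM in intact hulls. The part of other cell types in these values was not tested.

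**Figure D3:**
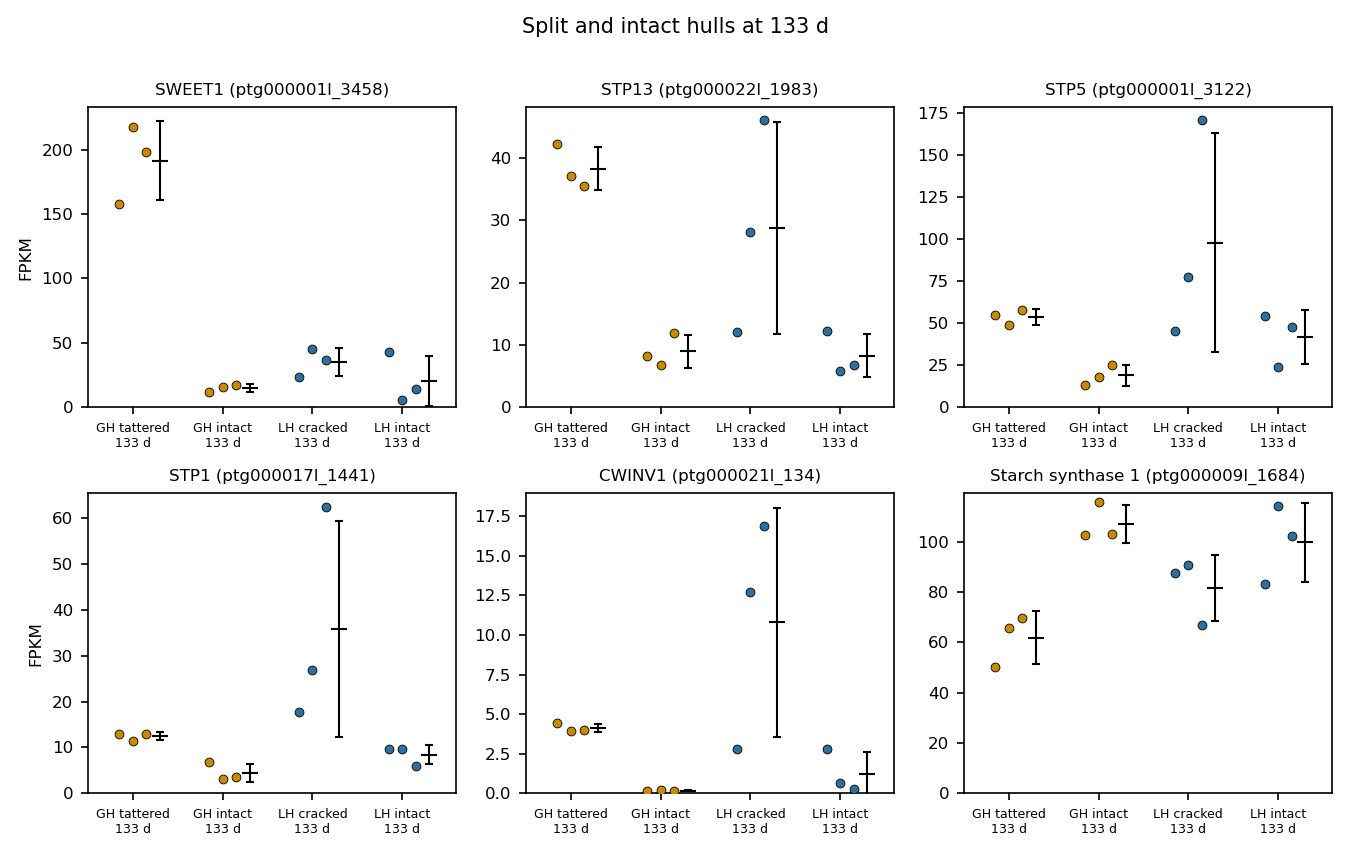
FPKM (y axis) of 6 genes at 133 d in tattered and intact hulls of Golden Hills (GH) and cracked and intact hulls of Lost Hills (LH). Points are libraries, and the black mark with its bar is the mean and SD. SWEET1 lay between 158 and 218 FPKM in tattered hulls and between 5.38 and 44.9 FPKM in the other groups, and in cracked hulls replicate 3 was the highest for the 3 sugar transport proteins and CWINV1.

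Between 91 d and 133 d the members of intact hulls changed in both directions. In Golden Hills 37 of 71 were called, 20 higher and 17 lower at 133 d, which is 52.1% against 45.3% of all tested genes (23.2% higher and 22.1% lower). In Lost Hills 29 were called, 10 higher and 19 lower, which is 40.8% against 31.7% of all tested genes (16% higher and 15.7% lower). An unadjusted p under 0.05 was found for 47 members in Golden Hills and 40 in Lost Hills, against 51.9% and 42.1% of all tested genes. Median log2 fold changes were -0.03 over the members and -0.03 over all genes in Golden Hills, and -0.03 over the members and 0.00 over all genes in Lost Hills. The changes of 20 genes were called in both cultivars, all in the same direction, 9 higher and 11 lower at 133 d. The share of all tested genes called in both cultivars was not counted, so this overlap is not shown to be particular to the members. Another 17 were called in Golden Hills alone and 9 in Lost Hills alone, without any member called in the test of the difference. In Golden Hills the split between higher and lower depended on the scaling: 14 were higher and 25 lower on TPM, and 14 higher and 26 lower on library totals, with the median of all genes shifted to -0.17 and -0.16. The effective sizes behind the FPKM of these intact hulls were 15526763 to 16534511 at 133 d, below the reads counted in each library. At 91 d they were 17736090 to 19319823, above the reads counted in each library. Leaving out both libraries numbered 2 at 91 d gave 35 calls in Golden Hills and 26 in Lost Hills, and leaving out replicate 3 of Golden Hills as well gave 29 and 24. With each library left out in turn, 25 of the 37 and 17 of the 29 kept their call each time.

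The largest change of all members was that of an acid invertase of the soluble kind, beta-fructofuranosidase soluble isoenzyme I (evm_TU_ptg000004l_880, contig ptg000004l, 12334675 to 12338560, minus strand). Enzymes of this type split sucrose in the vacuole. The gene had 228, 210.3 and 227 FPKM in Golden Hills at 133 d, against 0.140, 0.312, 0.523 and 0.665 FPKM at 91 d. The mean was 541-fold higher at 133 d (log2 fold change 7.32 ± 0.48, adjusted p = 6.03e-09). In Lost Hills it had 15.8, 102 and 72.6 FPKM at 133 d, against 0.157, 0.207, 0.773 and 0.147 FPKM at 91 d (198-fold, log2 fold change 5.28 ± 0.48, adjusted p = 7.13e-07). The ages were far apart in both cultivars, and among the Lost Hills libraries of 133 d replicate 1 was the lowest. Without replicate 3 of Lost Hills at 91 d the ratio of means was 373. In split hulls the gene had 79.2, 135 and 129.9 FPKM when tattered and 100.1, 62.2 and 24.2 FPKM when cracked, and it was called in neither split comparison.

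Another vacuolar invertase, acid beta-fructofuranosidase 2 (evm_TU_ptg000010l_1123), had 39.2, 74.1 and 58.5 FPKM in Golden Hills at 133 d, against 17.0, 22.7, 70.8 and 69.3 FPKM at 91 d, with overlap and no call. The gene had 5.03, 15.9 and 11.9 FPKM in Lost Hills at 133 d, against 72.3, 22.6, 51.7 and 23.2 FPKM at 91 d. There it was 3.88-fold lower at 133 d without overlap (log2 fold change -1.81 ± 0.54, adjusted p = 0.0159), a call lost without replicate 1 of 133 d or of 91 d (-1.38 and -1.505, adjusted p = 0.0843 and 0.0556). Alkaline/neutral invertases act in the cytosol or organelles. The most abundant of them, invertase C, had 75.3, 69.3 and 72.8 FPKM in Golden Hills at 133 d, against 83.5, 61.2, 99.1 and 163 FPKM at 91 d, and was not called there. Lost Hills libraries had 50.01, 39.5 and 39.3 FPKM at 133 d, against 89.0, 57.1, 82.4 and 54.9 FPKM at 91 d, and the gene was called lower there (1.65-fold, log2 fold change -0.69 ± 0.24, adjusted p = 0.0363). That call was lost without replicate 2 or 3 of 133 d (-0.63 and -0.63) or replicate 1 or 3 of 91 d (-0.57 and -0.60). With no expression filter and with a replicate block it was lost too (adjusted p = 0.0530 and 0.0785). Both genes of invertase E (evm_TU_ptg000009l_834 and evm_TU_ptg000016l_206), chosen after their values were seen, were called higher at 133 d in Golden Hills (1.66-fold and 1.41-fold, adjusted p = 0.00195 and 0.0164) and were not called with age in Lost Hills. The call of evm_TU_ptg000016l_206 was lost without replicate 3 of Golden Hills at 133 d (0.38, adjusted p = 0.0796).

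Sucrose synthases, which split sucrose reversibly into UDP-glucose and fructose, were called for 4 of 5 genes in each cultivar, 1 higher and 3 lower at 133 d. That is 80% of the sucrose synthases in each, against 45.3% of all tested genes in Golden Hills and 31.7% in Lost Hills. The most abundant one (evm_TU_ptg000001l_996, contig ptg000001l, 14902922 to 14908928, plus strand) had 187, 101 and 138 FPKM in Golden Hills at 133 d, against 192, 272, 297 and 228 FPKM at 91 d (1.74-fold lower, log2 fold change -0.82 ± 0.20, adjusted p = 0.00272). In Lost Hills it had 138, 107 and 113 FPKM at 133 d, against 171, 219, 224 and 213 FPKM at 91 d (1.73-fold lower, log2 fold change -0.79 ± 0.20, adjusted p = 0.00596). The ages did not overlap in either cultivar, and the call in Golden Hills was lost without the 3 mixed libraries of 91 d (-0.60, adjusted p = 0.0663). Sucrose synthase 7 (evm_TU_ptg000003l_1196) went the other way. It had 11.1, 33.8 and 27.4 FPKM in Golden Hills at 133 d, against 3.58, 5.09, 2.96 and 3.95 FPKM at 91 d (6.18-fold higher, log2 fold change 2.24 ± 0.34, adjusted p = 4.75e-05). The gene had 7.63, 9.42 and 11.5 FPKM in Lost Hills at 133 d, against 4.99, 3.65, 2.76 and 5.55 FPKM at 91 d (2.25-fold higher, log2 fold change 1.02 ± 0.34, adjusted p = 0.0300). Its call in Lost Hills was lost without replicate 2 or 3 of 133 d (1.02 and 0.89) or replicate 2 or 3 of 91 d (0.98 and 0.87), and without both libraries numbered 2 or the 3 mixed libraries (adjusted p = 0.0704 and 0.0816). Among sucrose-phosphate synthases, the gene evm_TU_ptg000001l_4362 had 28.3, 40.6 and 48.4 FPKM in Golden Hills at 133 d, against 65.6, 85.4, 70.7 and 88.7 FPKM at 91 d (1.98-fold lower, log2 fold change -0.99 ± 0.21, adjusted p = 0.00081). Sucrose-phosphatase 2 had 49.5, 84.5 and 75.3 FPKM in Golden Hills at 133 d, against 92.8, 76.1, 67.4 and 64.4 FPKM at 91 d, and was called in no comparison.

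For starch synthesis, 4 of 11 tested genes were called with age in Golden Hills (2 higher and 2 lower) and 5 in Lost Hills (2 higher and 3 lower), which is 36.4% and 45.5%, against 45.3% and 31.7% of all tested genes. Starch synthase 1 (contig ptg000009l, 21940990 to 21947766, minus strand) had 103, 116 and 103 FPKM in Golden Hills at 133 d, against 37.3, 36.9, 33.9 and 46.7 FPKM at 91 d (2.77-fold higher, log2 fold change 1.45 ± 0.15, adjusted p = 7.26e-07). Lost Hills libraries had 83.1, 114 and 102 FPKM at 133 d, against 50.4, 39.0, 39.7 and 47.4 FPKM at 91 d (2.26-fold higher, log2 fold change 1.16 ± 0.15, adjusted p = 2.33e-05). The ages stood apart in both cultivars, while a starch synthase 4 (evm_TU_ptg000013l_1271) was lower. That gene had 4.35, 4.36 and 4.11 FPKM in Golden Hills at 133 d, against 8.24, 9.69, 8.42 and 7.57 FPKM at 91 d (1.98-fold lower, adjusted p = 8.15e-05). In Lost Hills it had 3.67, 2.15 and 3.66 FPKM at 133 d, against 9.74, 9.27, 12.1 and 8.72 FPKM at 91 d (3.15-fold lower, log2 fold change -1.41 ± 0.14, adjusted p = 1.26e-06). A large subunit of glucose-1-phosphate adenylyltransferase (evm_TU_ptg000020l_2488, large subunit 3), the enzyme that makes the ADP-glucose used by starch synthases, had 8.94, 6.42 and 4.97 FPKM in Lost Hills at 133 d, against 1.65, 0.623, 0.744 and 1.81 FPKM at 91 d. It was 5.62-fold higher at 133 d (log2 fold change 1.83 ± 0.32, adjusted p = 0.00033). In Golden Hills the same gene had 0.619, 1.72 and 1.45 FPKM at 133 d, against 0.423, 0.403, 0.497 and 0.0208 FPKM at 91 d, and was not called. The small subunit, the most abundant of the class, had 28.8, 29.8 and 23.6 FPKM in Golden Hills at 133 d, against 37.3, 32.7, 39.9 and 33.0 FPKM at 91 d, and was called in no comparison.

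Among amylase genes, inactive beta-amylase 9 was lower at 133 d. The most abundant of 3 alpha-amylases (evm_TU_ptg000001l_2703, contig ptg000001l, 36525554 to 36527816, minus strand) was higher. Alpha-amylases cut starch chains internally. The gene had 231, 292 and 247 FPKM in Golden Hills at 133 d, against 34.0, 28.0, 23.4 and 34.0 FPKM at 91 d (8.60-fold higher, log2 fold change 3.07 ± 0.31, adjusted p = 6.91e-07). The gene had 59.3, 132 and 121 FPKM in Lost Hills at 133 d, against 15.4, 28.3, 27.6 and 21.4 FPKM at 91 d (4.48-fold higher, log2 fold change 2.07 ± 0.31, adjusted p = 9.95e-05). Inactive beta-amylase 9 (contig ptg000022l, 23503735 to 23506329, plus strand) had 124, 73.0 and 72.9 FPKM in Golden Hills at 133 d, against 859, 441, 412 and 451 FPKM at 91 d (6.02-fold lower, log2 fold change -2.55 ± 0.25, adjusted p = 4.41e-07). Lost Hills libraries had 98.4, 93.9 and 88.4 FPKM at 133 d, against 347, 413, 362 and 426 FPKM at 91 d (4.13-fold lower, log2 fold change -2.03 ± 0.25, adjusted p = 1.41e-05). For the most abundant alpha-amylase, no library of 91 d reached the level of any library of 133 d in either cultivar. For inactive beta-amylase 9, no library of 133 d reached the level of any library of 91 d. Over the 11 tested alpha- and beta-amylase genes, this inactive protein included, 1 was higher and 3 lower in Golden Hills (36.4% called, against 45.3% of all tested genes) and 1 higher and 5 lower in Lost Hills (54.5%, against 31.7%). Probable alpha-amylase 2 (evm_TU_ptg000001l_2244) was called lower at 133 d in both cultivars (Golden Hills 1.78-fold, Lost Hills 2.05-fold). Each call was lost without 1 library of 133 d (log2 fold changes -0.47 and -0.89). Alpha-amylase 3 (evm_TU_ptg000024l_596) was called lower in Lost Hills alone (1.39-fold). Both were added with their values known. Alpha-amylases summed to 198 FPKM on average in Lost Hills at 133 d and 202 FPKM at 91 d (Golden Hills, 336 and 155 FPKM).

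Of the 19 tested transporters 14 were called with age in Golden Hills (9 higher and 5 lower) and 6 in Lost Hills (4 higher and 2 lower), which is 73.7% and 31.6%, against 45.3% and 31.7% of all tested genes. The sucrose transporter SUC2 (contig ptg000001l, 46315309 to 46318774, plus strand) had 114, 60.2 and 128 FPKM in Golden Hills at 133 d, against 264, 298, 213 and 190.1 FPKM at 91 d (2.39-fold lower, log2 fold change -1.3 ± 0.21, adjusted p = 9.62e-05). In Lost Hills it had 205, 243 and 240.3 FPKM at 133 d, against 388, 334, 378 and 348 FPKM at 91 d (1.58-fold lower, log2 fold change -0.66 ± 0.21, adjusted p = 0.0257). The ages did not overlap in either cultivar, but the call in Lost Hills was lost without any library of 133 d (-0.58, -0.70 and -0.69) or without replicate 1 or 3 of 91 d (-0.62 and -0.64). SUC4, a sucrose carrier of the vacuole membrane in Arabidopsis, was chosen after its values were seen. It had 46.3, 43.1 and 46.4 FPKM in Golden Hills at 133 d, against 46.4, 37.7, 38.6 and 44.3 FPKM at 91 d, and was called in no comparison. The third gene of this class, SUC3 (evm_TU_ptg000024l_1045), was also chosen after its values were seen. SUC3 was called higher at 133 d in Golden Hills (1.64-fold) and was not called with age in Lost Hills.

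Sugar transport protein 1 had 6.76, 3.13 and 3.45 FPKM in Golden Hills at 133 d, against 31.8, 30.3, 21.0 and 14.2 FPKM at 91 d (5.47-fold lower, log2 fold change -2.21 ± 0.34, adjusted p = 4.46e-05). The gene had 9.57, 9.66 and 5.98 FPKM in Lost Hills at 133 d, against 17.9, 25.5, 20.9 and 22.4 FPKM at 91 d (2.58-fold lower, log2 fold change -1.29 ± 0.34, adjusted p = 0.00738). The gene thus had its lowest values in intact hulls of 133 d in both cultivars, below those of 91 d and below those of split hulls of the same age. Sugar transport protein 5 had 13.4, 17.7 and 25.3 FPKM in Golden Hills at 133 d, against 71.9, 61.1, 45.3 and 35.6 FPKM at 91 d (2.84-fold lower, log2 fold change -1.45 ± 0.38, adjusted p = 0.00491). Lost Hills libraries had 54.4, 23.7 and 47.5 FPKM at 133 d, against 30.0, 68.5, 53.6 and 52.6 FPKM at 91 d, with overlap and no call.

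SWEET2 (evm_TU_ptg000009l_1900), of a kind that in Arabidopsis sits in the vacuole membrane, had 22.3, 12.6 and 13.2 FPKM in Golden Hills at 133 d, against 1.5, 1.60, 2.90 and 4.13 FPKM at 91 d (6.34-fold higher, log2 fold change 2.29 ± 0.39, adjusted p = 0.00012). In Lost Hills it had 4.76, 18.3 and 9.07 FPKM at 133 d, against 5.26, 1.72, 2.81 and 3.79 FPKM at 91 d. Its Lost Hills groups overlapped, and the call (3.15-fold higher, log2 fold change 1.3 ± 0.39, adjusted p = 0.0159) was lost without replicate 2 of 133 d (0.86, with a ratio of means of 2.03) or of 91 d (1.10, adjusted p = 0.0528), and without both libraries numbered 2 or the 3 mixed libraries (adjusted p = 0.0575 and 0.0689). SWEET7 had 275, 151 and 281 FPKM in Golden Hills at 133 d, against 398, 474, 355 and 436 FPKM at 91 d (1.76-fold lower, log2 fold change -0.86 ± 0.25, adjusted p = 0.00947). The groups did not overlap, and the call was lost without replicate 2 of 133 d (-0.57, adjusted p = 0.0808). In Lost Hills SWEET7 had 324, 612 and 657 FPKM at 133 d, against 564, 525, 681 and 691 FPKM at 91 d, and was not called.

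The SWEET17 gene evm_TU_ptg000007l_118 had no read in any of the 8 libraries of 91 d and was detected in every library of 133 d. Its intact hulls had 1.31, 2.70 and 1.86 FPKM in Golden Hills at 133 d, at least 8.97-fold above a floor of 3 reads per library at 91 d. The gene had 0.588, 1.17 and 1.88 FPKM in Lost Hills at 133 d, at least 5.44-fold above the same floor. It was called higher at 133 d in both cultivars, a call lost in Lost Hills without replicate 2 or 3 of 133 d (log2 fold changes 1.10 and 0.89). The floor covers counting error only. HEX6 (evm_TU_ptg000004l_944), annotated as a hexose carrier, had 10.9, 8.93 and 8.69 FPKM in Golden Hills at 133 d, against 3.51, 4.37, 2.18 and 2.38 FPKM at 91 d (3.05-fold higher, adjusted p = 0.00014). Lost Hills libraries had 8.70, 8.26 and 6.80 FPKM at 133 d, against 3.43, 3.45, 1.42 and 4.13 FPKM at 91 d (2.55-fold higher, adjusted p = 0.00117). This gene is a model of 237 bases next to another HEX6 gene, so the pair may share reads.

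Marker lists were summed for the ages as well. Kernel genes summed to 23.6 to 29.0 FPKM in Golden Hills at 133 d, against 55.5 to 99.6 FPKM at 91 d, and to 33.1 to 51.2 FPKM in Lost Hills at 133 d, against 50.8 to 116 FPKM at 91 d. Shell genes summed to 1.40 to 1.52 FPKM in Golden Hills at 133 d, against 2.94 to 11 FPKM at 91 d, and to 0.613 to 1.10 FPKM in Lost Hills at 133 d, against 3.37 to 7.64 FPKM at 91 d. Genes of green tissue (25 genes, 1 without a read) summed to 498 to 596 FPKM in Golden Hills at 133 d, against 637 to 935 FPKM at 91 d, and to 448 to 720.3 FPKM in Lost Hills at 133 d, against 668 to 825 FPKM at 91 d. Genes of epidermis and cuticle summed to 46.3 to 47.9 FPKM in Golden Hills at 133 d, against 27.7 to 34.4 FPKM at 91 d, without overlap, and to 21.9 to 30.5 FPKM in Lost Hills at 133 d, against 27.7 to 35.0 FPKM at 91 d. Phloem genes overlapped between the ages in both cultivars, with 616 to 846 FPKM in Golden Hills at 133 d, against 737 to 952 FPKM at 91 d, and 934 to 1045 FPKM in Lost Hills at 133 d, against 918 to 1104 FPKM at 91 d. Their part in the age changes of sugar and starch genes was not tested.

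**Figure D4:**
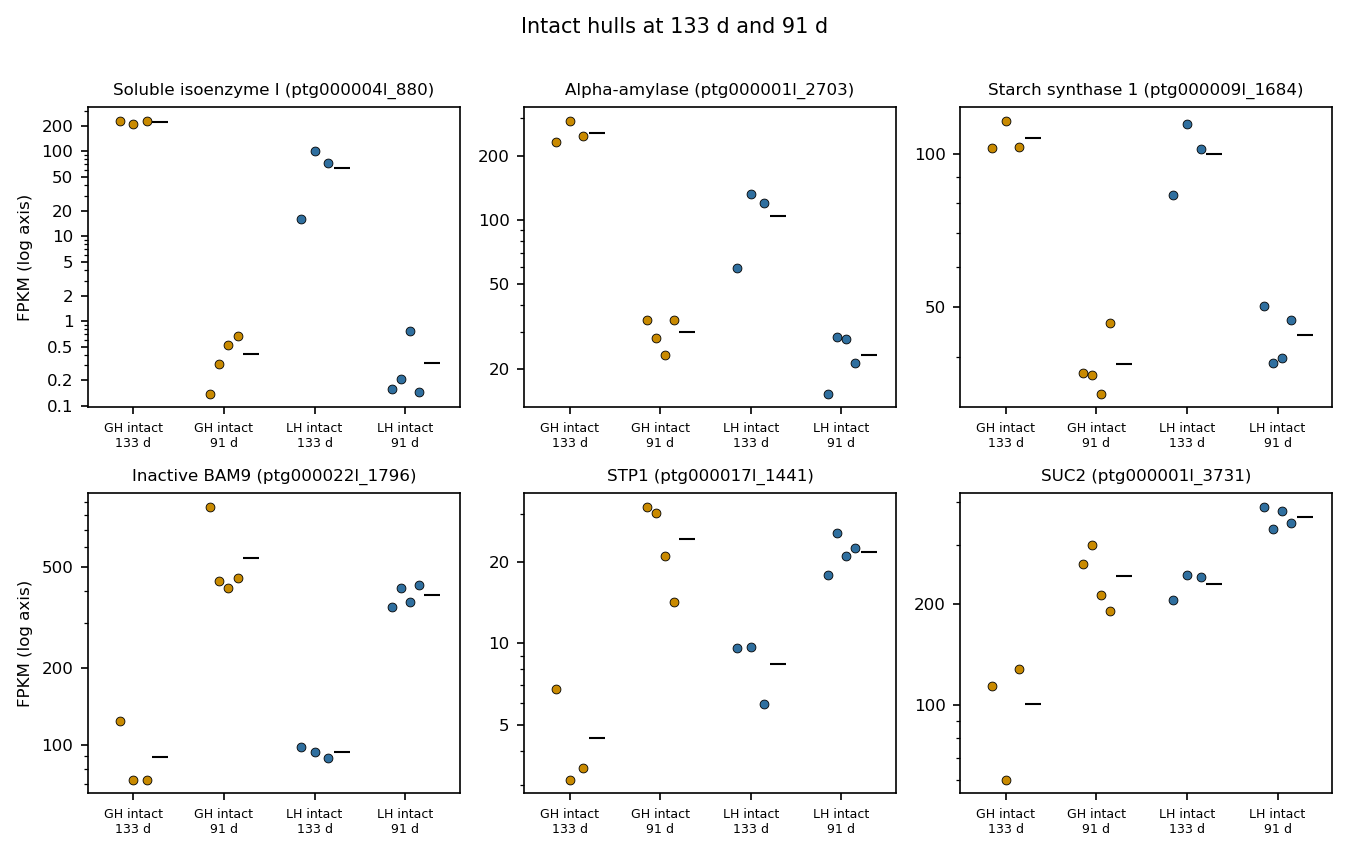
FPKM (y axis, logarithmic) of 6 genes in intact hulls of Golden Hills (GH) and Lost Hills (LH) at 133 d and 91 d. Points are libraries and black bars are means. The soluble invertase isoenzyme I lay between 15.8 and 228 FPKM at 133 d and below 1 FPKM at 91 d, and inactive beta-amylase 9 between 72.9 and 124 FPKM at 133 d and between 347 and 859 FPKM at 91 d.

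The cultivars differed at 133 d in 18 of 71 members, 12 higher and 6 lower in Golden Hills than in Lost Hills. That is 25.4%, against 16.8% of all tested genes (8.88% higher and 7.91% lower), with a median log2 fold change of 0.15 over the members and 0.00 over all genes. An unadjusted p under 0.05 was found for 29 members, against 31% of all tested genes. On TPM scaling 6 were higher and 8 lower, and on library totals 7 were higher and 8 lower, with the median of all genes shifted to -0.10 and -0.12. Without replicate 1 of the intact Lost Hills hulls 10 members were called, and fitting only the groups compared called 11. With each library left out in turn 6 of the 18 kept their call each time. At 91 d 0 members were called between the cultivars by limma and 11 had an unadjusted p under 0.05, against 5.1% of all tested genes called (2.55% higher and 2.56% lower) and 16.6% under the unadjusted threshold. By voom on the recovered reads 0 were called, and without the 3 mixed libraries 1 was called.

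Golden Hills had the higher levels of both soluble acid invertases named above at 133 d. Acid beta-fructofuranosidase 2 had 39.2, 74.1 and 58.5 FPKM in Golden Hills, against 5.03, 15.9 and 11.9 FPKM in Lost Hills. The groups did not overlap (5.23-fold higher, log2 fold change 2.36 ± 0.58, adjusted p = 0.00886), and the call was lost without replicate 1 of Lost Hills (1.93, adjusted p = 0.0544). Soluble isoenzyme I had 228, 210.3 and 227 FPKM in Golden Hills, against 15.8, 102 and 72.6 FPKM in Lost Hills (3.50-fold higher, log2 fold change 2.15 ± 0.51, adjusted p = 0.00773). It was not called with only the groups compared in the fit (adjusted p = 0.0857). Alpha-amylase had 231, 292 and 247 FPKM in Golden Hills, against 59.3, 132 and 121 FPKM in Lost Hills (2.47-fold higher, log2 fold change 1.37 ± 0.34, adjusted p = 0.00924), a call lost without replicate 1 of Lost Hills (1.01, adjusted p = 0.0606). In all 3 genes every Golden Hills library was above every Lost Hills one.

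Sucrose synthase 7 had 11.1, 33.8 and 27.4 FPKM in Golden Hills at 133 d, against 7.63, 9.42 and 11.5 FPKM in Lost Hills. The groups overlapped, and the call (2.53-fold higher, log2 fold change 1.14 ± 0.37, adjusted p = 0.0409) was lost without any of the 5 libraries other than replicate 1 of Golden Hills (log2 fold changes 0.83 to 1.27, adjusted p = 0.0533 to 0.164). It was also lost on TPM and library total scaling (1.02 and 1.00, adjusted p = 0.0553 and 0.0563) and without both libraries numbered 2 at 91 d (adjusted p = 0.0556). Further losses came with no expression filter, with only the groups compared and without the 3 mixed libraries (adjusted p = 0.0621, 0.129 and 0.0672). Sucrose synthase 2 (evm_TU_ptg000019l_875), chosen after its values were seen, had 168, 181 and 193 FPKM in Golden Hills at 133 d, against 126, 100.1 and 107 FPKM in Lost Hills (1.63-fold higher, log2 fold change 0.70 ± 0.13, adjusted p = 0.00139). Its groups stood apart, and the call held with each library left out.

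The most abundant sucrose transporter and the most abundant SWEET gene were lower in Golden Hills at 133 d, while none of 6 tested sugar transport proteins was called. SUC2 had 114, 60.2 and 128 FPKM in Golden Hills at 133 d, against 205, 243 and 240.3 FPKM in Lost Hills (2.27-fold lower, log2 fold change -1.24 ± 0.23, adjusted p = 0.00110). SWEET7 had 275, 151 and 281 FPKM in Golden Hills, against 324, 612 and 657 FPKM in Lost Hills (2.25-fold lower, log2 fold change -1.16 ± 0.27, adjusted p = 0.00641). Neither gene overlapped between the cultivars, although the call of SWEET7 was lost with only the groups compared in the fit (adjusted p = 0.0978). SUC3, chosen after its values were seen, was called higher in Golden Hills than in Lost Hills (1.34-fold). Large subunit 3 of glucose-1-phosphate adenylyltransferase had 0.619, 1.72 and 1.45 FPKM in Golden Hills, against 8.94, 6.42 and 4.97 FPKM in Lost Hills (5.36-fold lower, log2 fold change -1.78 ± 0.34, adjusted p = 0.00142). A different large subunit (evm_TU_ptg000001l_2497), chosen after its values were seen, had 20.3, 23.9 and 19.8 FPKM in Golden Hills, against 9.44, 13.6 and 11.4 FPKM in Lost Hills (1.85-fold higher, log2 fold change 0.84 ± 0.20, adjusted p = 0.00745). The large subunits thus lay in opposite order in the cultivars, with no overlap for either. The sucrose-phosphate synthase 4 gene evm_TU_ptg000001l_4362 had 28.3, 40.6 and 48.4 FPKM in Golden Hills, against 62.5, 70.4 and 69.8 FPKM in Lost Hills (1.73-fold lower, log2 fold change -0.80 ± 0.22, adjusted p = 0.0183). Its call was lost without replicate 1 of Golden Hills (-0.59, adjusted p = 0.0960) or replicate 3 of Lost Hills (-0.78, adjusted p = 0.0529), and with only the groups compared in the fit (adjusted p = 0.0535). Phloem genes summed to 616 to 846 FPKM in Golden Hills at 133 d, against 934 to 1045 FPKM in Lost Hills, and genes of epidermis and cuticle to 46.3 to 47.9 FPKM in Golden Hills, against 21.9 to 30.5 FPKM in Lost Hills. Kernel genes summed to 23.6 to 29.0 FPKM in Golden Hills, against 33.1 to 51.2 FPKM in Lost Hills, and shell genes to 1.40 to 1.52 FPKM in Golden Hills, against 0.613 to 1.10 FPKM in Lost Hills. None of these 4 sums overlapped between the cultivars, and green tissue sums did (498 to 596 FPKM in Golden Hills, against 448 to 720.3 FPKM in Lost Hills). Their part in these differences was not tested.

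Other genes of the same pathways were taken by words in their descriptions, and 101 of them were tested. Whether their calls held with libraries left out or under other settings was not examined. In tattered hulls 17 were called, 8 higher and 9 lower, which is 16.8%, against 16.6% of all tested genes. In cracked hulls 1 was called, higher, which is 0.990%, against 1.56%. A raffinose synthase gene (evm_TU_ptg000019l_2695, galactinol-sucrose galactosyltransferase 5), which joins galactose to sucrose, was higher in tattered hulls (log2 fold change 3.27 ± 0.44, adjusted p = 7.47e-05). Phosphoglucan water dikinase (evm_TU_ptg000022l_876), which phosphorylates starch before its breakdown, was lower there (log2 fold change -0.74 ± 0.12, adjusted p = 0.00050), as was a 1,4-alpha-glucan-branching enzyme (evm_TU_ptg000001l_2293; log2 fold change -0.51 ± 0.13, adjusted p = 0.0151). The only call in cracked hulls was an ERD6-like sugar transporter (evm_TU_ptg000007l_401; log2 fold change 1.08 ± 0.26, adjusted p = 0.0378).

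With age, 53 of these genes were called in Golden Hills (35 higher and 18 lower at 133 d) and 42 in Lost Hills (25 higher and 17 lower), which is 52.5% and 41.6%, against 45.3% and 31.7% of all tested genes. Among them polyol transporter 5 (evm_TU_ptg000020l_2390) was higher at 133 d in both (log2 fold changes 1.58 ± 0.29 and 2.15 ± 0.29), as was an ERD6-like 5 transporter (evm_TU_ptg000007l_405; 1.504 ± 0.15 and 1.28 ± 0.15). Alpha-glucan phosphorylase H (evm_TU_ptg000016l_868), which removes glucose from chain ends, was lower at 133 d in both (-0.86 ± 0.11 and -0.79 ± 0.11). Between the cultivars 23 were called at 133 d, 15 higher and 8 lower in Golden Hills, and 8 at 91 d, 5 higher and 3 lower, which is 22.8% and 7.92%, against 16.8% and 5.1% of all tested genes. The age change itself differed between the cultivars for 9 of these genes (8.91%, against 3.29%) and the split change for 1 (0.990%, against 0.994%). Trehalose-phosphate phosphatase J (evm_TU_ptg000013l_101), which forms trehalose, was called in the test of the age difference (Golden Hills minus Lost Hills, log2 difference -3.66 ± 0.54, adjusted p = 0.00123) and was higher at 133 d in Lost Hills (log2 fold change 2.66 ± 0.38, adjusted p = 6.39e-05). A plastid UTP-glucose-1-phosphate uridylyltransferase (evm_TU_ptg000009l_151) was called in the test of the split difference (-1.89 ± 0.33, adjusted p = 0.00644).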

How the data were processed

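RNA of 20 hull libraries was sequenced after poly-A selection and dUTP second-strand synthesis, per the labels' protocols. Per the submitters' processing notes, HISAT2 2.0.5, StringTie 1.3.3b and featureCounts 1.5.0-p3 were used, without their role. The genome build is not given in the sources used here. Coordinates are on the contigs of the deposited table, and names are its protein matches (24977 genes of 39783). The authors deposited FPKM values per gene. Multiplied by gene length and by an effective size of each library, 100% of them came out as whole reads within 0.01, which gave the depth. The 24 pairs of libraries within groups differed by a chi-square per gene of 8.44 to 62.0, so none was a copy.

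The 19716 genes that reached 1 FPKM in 3 or more libraries were tested in 1 fit of 6 groups with limma 3.58.1 in R 4.3.3 (eBayes with a trend) on log2(FPKM + 1), which understates the change of low genes. Tests were two-sided, with Benjamini-Hochberg adjustment and a threshold of 0.05. There were 6 pairwise comparisons and 2 interactions, 8 in all. Linear folds are ratios of mean FPKM. Steps were tested on simulated data. No sequences are printed.

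Named genes were, per comparison, the 4 largest rises and 4 largest falls among called members averaging 5 FPKM or more in the higher group, the highest member of each class, members called in an interaction (0), and members called in both splits. Pathway genes were the called gene of highest mean in a class. The members, lists, tests and alternatives were chosen with earlier results of these data known. Marker lists were summed only. The words for fructokinase also took in phosphofructokinases, and those for isoamylase took in branching enzymes. The alternatives were a pseudocount of 0.1, no filter, a mean of at least 5 FPKM, TPM, library totals, voom on the recovered reads, only the groups compared, a replicate block, each library left out, and both libraries numbered 2 at 91 d left out. Leaving out 3 mixed libraries was chosen after seeing the data.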

Additional observations from a re-analysis of the deposited data

Results flagged for a closer look

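In 2 of 48 groups of 4 libraries of named genes, 1 library stood far from the others by Dixon's test, and chance flags about 1 in 20 such groups. The soluble invertase isoenzyme I (evm_TU_ptg000004l_880) had 0.773 FPKM in replicate 3 of Lost Hills at 91 d, against 0.147 to 0.207 FPKM in the other 3 libraries. Inactive beta-amylase 9 (evm_TU_ptg000022l_1796) had 859 FPKM in replicate 1 of Golden Hills at 91 d, against 412 to 451 FPKM in the other 3 libraries. Neither library was among the 3 mixed libraries of 91 d. Replicate 1 of Golden Hills had more than 3 reads for 1 of the 12 Lost Hills genes used to find these. Replicate 3 of Lost Hills had that for 0 of the 14 Golden Hills genes.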

How the results depend on the processing

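Of 48 results of named genes, 28 kept their call in every alternative, 20 lost it in at least 1, and 0 changed direction. The loss came in 17 with a library left out, 8 with only the groups compared, 5 without the 3 mixed libraries and at most 3 in any other alternative. Counts of called members stayed within 1.5 times except as follows. For cracked hulls (2 called) a mean of at least 5 FPKM gave 1, voom 1 and only the groups compared 0. Between the cultivars at 91 d (0 called) no expression filter gave 1, only the groups compared 1 and leaving out the 3 mixed libraries 1. At 133 d (18 called) only the groups compared gave 11. For the age difference (0 called) TPM gave 1 and leaving out the 3 mixed libraries 1. With each library left out the counts were 9 to 12 for tattered hulls, 0 to 10 for cracked hulls, 0 between the cultivars at 91 d, 10 to 15 between them at 133 d, 31 to 37 for age in Golden Hills, 20 to 31 for age in Lost Hills, 0 to 1 for the split difference and 0 to 1 for the age difference. The causes were not tested, and the share of all tested genes called was not counted for any alternative. The replicate numbers were not shown to pair libraries: deviations of same-numbered libraries correlated between -0.174 and 0.223, with 3 of 19 over 0.1. Only between tattered and intact Golden Hills hulls were all correlations positive (0.223, 0.152 and 0.078). Libraries of different numbers were not correlated for reference, so pairing was not excluded. With a replicate block the counts were 14 for tattered hulls, 2 for cracked hulls, 0 and 16 between the cultivars at 91 d and 133 d, 32 and 28 for age in Golden Hills and Lost Hills, and 0 for both differences, and 2 results of named genes lost their call. Depth limits genes under about 1 FPKM, which include the 54 untested members.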
